A study of Mus musculus with 31 samples.

Results

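The genes described here encode subunits of the GABA-A receptor, and they were taken as every probe set that the platform annotation assigns to Gabra2, Gabra3, Gabra4, Gabra5, Gabra6, Gabrb1 or Gabrb2. These 7 genes of 18193 held 21 of the 45101 probe sets. Gabra2 had 5 probe sets, Gabrb2 5, Gabrb1 4, Gabra3 2, Gabra4 2, Gabra6 2 and Gabra5 1. The rule itself uses gene names and no measured value. Other subunit genes that the annotation does not list were not analysed here.

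GABA-A receptors are pentameric chloride channels that open when they bind the transmitter GABA, and in the mature nervous system they carry most fast inhibition of neurons. Alpha and beta subunits together form the site that binds GABA, and a receptor usually adds a gamma or delta subunit. The alpha subunit sets much of the receptor's pharmacology and its place on the cell: receptors with the alpha-2 or alpha-3 subunit are mostly synaptic, those with alpha-4 or alpha-5 often lie outside synapses, and alpha-6 is a mark of cerebellar granule cells. A probe set for such a subunit reads its messenger RNA and not the assembled receptor.

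Total RNA was hybridised to 31 Affymetrix mouse arrays, and the labels place these in 10 groups of CD4+ T cells sorted from spleen and lymph nodes. Foxp3 is the transcription factor that defines regulatory T cells (Treg). The reporter strain carried EGFP behind an intact Foxp3 gene on the same transcript, and the mutant strain, written Foxp3deltaEGFP, carried the reporter in a mutant Foxp3 gene. Natural Treg (4 arrays), conventional T (3) and natural Foxp3-delta cells (2, sorted as EGFP+ from heterozygous females) were not cultured. Induced Treg (5), failed induced Treg (3, EGFP- cells of the same cultures) and induced Foxp3-delta cells (3, started from cells of mutant males) had 3 days of anti-CD3, anti-CD28 and TGF-beta. Activated T (4) were conventional cells given both antibodies without TGF-beta, and activated natural Treg (3) were natural Treg given both antibodies with TGF-beta. IL-2 induced Treg (2) and IL-2 induced Foxp3-delta (2) were induced cells kept for 1 more week in 100 units per ml of interleukin 2 (IL-2). No label gives an age. The labels number the samples without saying that they came from separate animals or cultures. The p-values therefore reflect the spread among these arrays alone, and that spread may be technical.

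The RNA on the arrays did not look like the labelled cells, and every group is therefore named below by its label only. Among 10 T cell markers measured, 4 were above the control level on all 31 arrays, the list's median percentile on an array was 25.9 to 32.1, and its summed deposited intensity ran from 173.3 to 386.9. The control level is the 95th percentile of 27 bacterial control probe sets on the same array (9.17 to 18.7 intensity units, median 11.62). Foxp3 lay between 7.619 and 17.02 and was above the control level on 17 of the 31 arrays. Markers of neurons (8 of 8), myelin (5 of 5) and astrocytes (5 of 5) were above it on every array, with median percentiles of 99.2, 99.9 and 99.2, and the summed neuron markers ran from 30630 to 87370. All 9 measured Hox genes that mark spinal and hindbrain position were above it too. Xist averaged 2925, and of the 3 Y-linked genes measured, 2 were above the control level on 0 arrays and Uty on 1, on arrays labelled from males included. In such bulk RNA, more cells of a type and more RNA per cell cannot be told apart.

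The deposited median intensity ran from 22.21 to 55.42 between arrays, and correlations between arrays were 0.982 to 0.996 within label groups and 0.981 to 0.997 between them. Clustering on array-wide level and spiked hybridisation controls gave 3 sets of 15, 10 and 6 arrays, called array sets 1, 2 and 3. All natural Treg, conventional T and IL-2 arrays were in array set 1 and all activated natural Treg arrays in array set 2. In 5 of the 12 pairwise comparisons the groups therefore have no array set in common: activated natural Treg against natural Treg, activated T against conventional T, natural Foxp3-delta against natural Treg and against conventional T, and IL-2 induced against induced Foxp3-delta. In those, label group and array set cannot be told apart.

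Promoter sequences are shown for both pairs of subunit genes that neighbour each other, because one member of the chromosome 11 pair read at the control level and the other far above it. The sequences come from RefSeq on GRCm38.p6, with 250 bases before and 50 after the annotated start, read 5′ to 3′ on the gene's strand, and all 7 genes matched (11 windows). Capitals mark the TATA motif TATAAA, the CCAAT motif, the GC box GGGCGG or the cyclic AMP response element TGACGTCA, each searched on both strands. None of these letter strings contains another. Gabra6 is chr11:42321023-42321322 on the minus strand, and the first of 3 Gabrb2 windows is chr11:42420190-42420489 on the plus strand. On chromosome 5, the first of 2 Gabrb1 windows is chr5:71657671-71657970 on the plus strand and Gabra4 is chr5:71658259-71658558 on the minus strand, with 288 bases between them.
Gabra6: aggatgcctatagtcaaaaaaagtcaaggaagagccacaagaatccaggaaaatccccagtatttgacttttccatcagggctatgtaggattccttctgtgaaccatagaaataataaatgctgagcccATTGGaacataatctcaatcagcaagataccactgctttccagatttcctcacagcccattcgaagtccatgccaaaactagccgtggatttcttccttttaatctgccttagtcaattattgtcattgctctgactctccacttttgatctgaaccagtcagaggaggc
Gabrb2: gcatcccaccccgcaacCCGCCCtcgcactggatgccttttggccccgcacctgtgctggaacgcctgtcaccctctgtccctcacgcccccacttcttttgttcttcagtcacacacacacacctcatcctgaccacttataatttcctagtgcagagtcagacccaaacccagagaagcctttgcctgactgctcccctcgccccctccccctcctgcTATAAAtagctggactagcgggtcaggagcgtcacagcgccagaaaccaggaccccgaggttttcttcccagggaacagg
Gabrb1: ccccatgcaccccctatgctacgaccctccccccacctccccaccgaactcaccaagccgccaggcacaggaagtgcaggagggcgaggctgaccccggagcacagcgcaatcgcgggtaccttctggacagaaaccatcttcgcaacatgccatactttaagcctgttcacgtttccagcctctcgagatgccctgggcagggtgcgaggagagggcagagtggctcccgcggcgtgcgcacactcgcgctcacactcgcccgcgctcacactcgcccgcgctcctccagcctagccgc
Gabra4: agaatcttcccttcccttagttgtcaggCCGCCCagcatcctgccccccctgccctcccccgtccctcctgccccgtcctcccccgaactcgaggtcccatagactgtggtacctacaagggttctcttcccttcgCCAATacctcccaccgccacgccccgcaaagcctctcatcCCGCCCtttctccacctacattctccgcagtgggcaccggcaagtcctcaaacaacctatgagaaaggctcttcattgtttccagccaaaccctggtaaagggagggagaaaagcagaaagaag

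The Gabra6 window was the poorer in CpG of the chromosome 11 pair, with 42.0% G and C, 2 CpG and an observed to expected CpG ratio of 0.155, against 59.0%, 11 CpG and 0.478 for the first Gabrb2 window. Over all 32851 windows the medians were 52.7% and 0.384. Both Gabra3 windows, which overlap each other, held 0 CpG, and Gabra3 read well above the control level. Whether the CpG content of a window bears on the level of its gene was not tested. The windows of Gabra2, Gabra4, Gabra5 and the first of Gabrb1 had ratios of 0.721, 0.536, 0.541 and 0.805. TATAAA, held by 13.6% of all windows, stood 30 bases before the first Gabrb2 start. The overlapping Gabra3 windows hold the same match further upstream, on the strand opposite to the gene. The GC box (35.7% of all windows) occurred in the windows of Gabra2 and Gabra4 and in the first of Gabrb2. CCAAT (37.4%) occurred in at least 1 window of every gene but Gabrb1. The response element (1.79%) occurred in 0 of the 11, and the first Gabrb1 window held none of the motifs. These are matches of letters and not shown sites.

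Of the 7 subunits, 6 were read far above the control level on every array and Gabra6 was not. A percentile here is a probe set's rank among all probe sets of its array, and a gene's brightest probe set is the one with the highest mean over the arrays. In all, 15 of the 21 probe sets were above the control level on all 31 arrays, and the same number passed a filter on low values (above 39.82, the median of the normalised table, on at least 2 arrays). The 6 that did not pass were both of Gabra6, 2 of Gabra2, 1 of Gabrb1 and 1 of Gabrb2. Probe sets differ in how strongly they bind, so intensities of different probe sets were not ranked against each other.

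**Figure D1:**
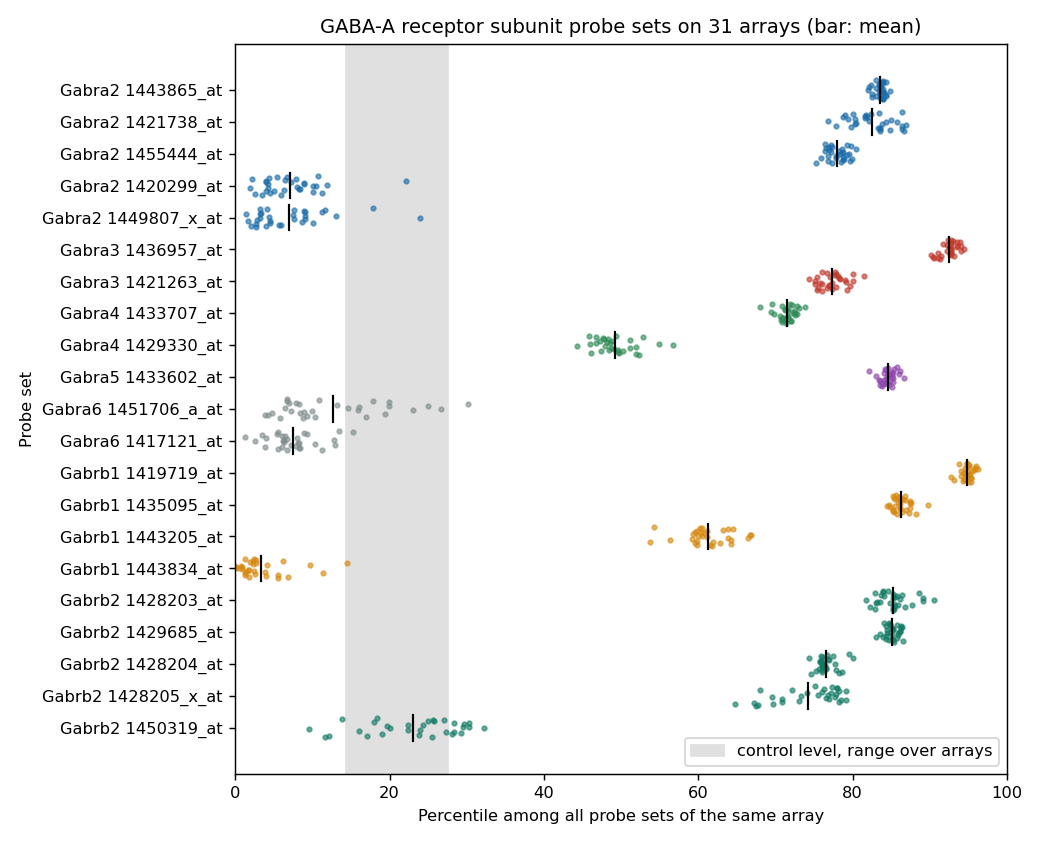
Percentile of each of the 21 subunit probe sets (rows, coloured by gene) among all probe sets of the same array (horizontal axis, 0 to 100). Each point is 1 of 31 arrays, the black bar is the mean, and the grey band is the range of the control level over arrays (14.4 to 27.6). Gabra6 and 3 probe sets of Gabra2 and Gabrb1 have means left of the band, Gabrb2 1450319_at has its mean within it, and the other 15 lie to its right.

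Among the alpha subunits, the brightest Gabra2 probe set, 1443865_at, had a lowest, median and highest deposited intensity of 195.2, 389.5 and 593.8 over the 31 arrays, at percentiles of 82.0 to 84.9. Gabra2 encodes alpha-2, a synaptic subunit linked to the anxiety-reducing action of benzodiazepines. Its probe sets 1421738_at and 1455444_at averaged percentiles of 82.5 and 78.0, whereas 1420299_at and 1449807_x_at averaged 7.09 and 6.93 and exceeded the control level on 0 and 2 arrays. Probe sets of Gabra2 thus disagreed on whether the gene was read at all, and the files do not show which transcript ends they match.

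Gabra3, the X-linked gene for alpha-3, read 534.5, 907.4 and 1819 (lowest, median, highest) with 1436957_at, at percentiles of 90.2 to 94.4, and its second probe set 1421263_at averaged percentile 77.4. Gabra4 encodes alpha-4, a subunit of receptors that give steady inhibition outside synapses. Its probe set 1433707_at read 77.59, 170.1 and 229.2, at percentiles of 68.0 to 73.9, and 1429330_at averaged percentile 49.2. Gabra5, for alpha-5, read 203.7, 413.4 and 612.3 with its single probe set 1433602_at, at percentiles of 82.1 to 86.7. All these probe sets were above the control level on 31 of 31 arrays.

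Gabra6 was the exception among the alpha subunits. Its brighter probe set, 1451706_a_at, read 5.981, 9.614 and 17.5 and exceeded the control level on 5 of 31 arrays, and 1417121_at read 5.969, 8.959 and 12.08 and exceeded it on 0. The control probe sets themselves had a median of 8.542. Of the genes listed as marks of cerebellar granule and Purkinje neurons, Cbln3, Pcp2, Fat2 and Neurod1 had mean percentiles of 28.8, 30.2, 36.8 and 46.3. Zic1 and Pvalb, which other neurons also express, were at 83.8 and 97.9. The summed list ran from 1634 to 5833, and 4 of its 6 genes were above the control level on all arrays.

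Both beta subunits, which contribute to the GABA binding site, were read strongly. Gabrb1 probe set 1419719_at read 651.8, 1283 and 2640 at percentiles of 92.8 to 96.2. Its probe sets 1435095_at and 1443205_at averaged percentiles of 86.3 and 61.2, and 1443834_at averaged 3.38 and exceeded the control level on 0 arrays. Gabrb2 probe set 1428203_at read 263.1, 439.8 and 679.5 at percentiles of 81.8 to 90.5. Its probe sets 1429685_at, 1428204_at and 1428205_x_at averaged percentiles of 85.1, 76.6 and 74.2, while 1450319_at averaged 23.0 and exceeded the control level on 24 arrays. Gabra2, Gabrb1 and Gabrb2 thus each had probe sets above the control level on all arrays beside others that were not.

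Once the arrays were brought to a common distribution, the subunit probe sets that passed the filter varied between arrays about as much as all probe sets that did. Differences are given on the log2 scale of the quantile-normalised intensity plus 16, which understates changes of dim probe sets. The SD over 31 arrays had a median of 0.164 for the 15 subunit probe sets that passed the filter and 0.162 for all 24669 that did. It was narrowest for Gabra2 1443865_at (0.071, a 1.24-fold span of normalised intensity from the lowest to the highest array) and widest for Gabrb2 1428205_x_at (0.384, a 2.71-fold span). Over 14 pairs of probe sets of a single gene, Pearson's r across the 31 arrays ran from -0.186 to 0.262. Within array sets 1, 2 and 3 it ran from -0.376 to 0.421, from -0.595 to 0.606 and from -0.376 to 0.798. The highest values came from the smallest set, at 0.724 for the Gabra3 pair and 0.798 for the Gabra4 pair over 6 arrays. The arrays share a normalisation and fall in 3 array sets, and the correlations are a description.

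**Figure D2:**
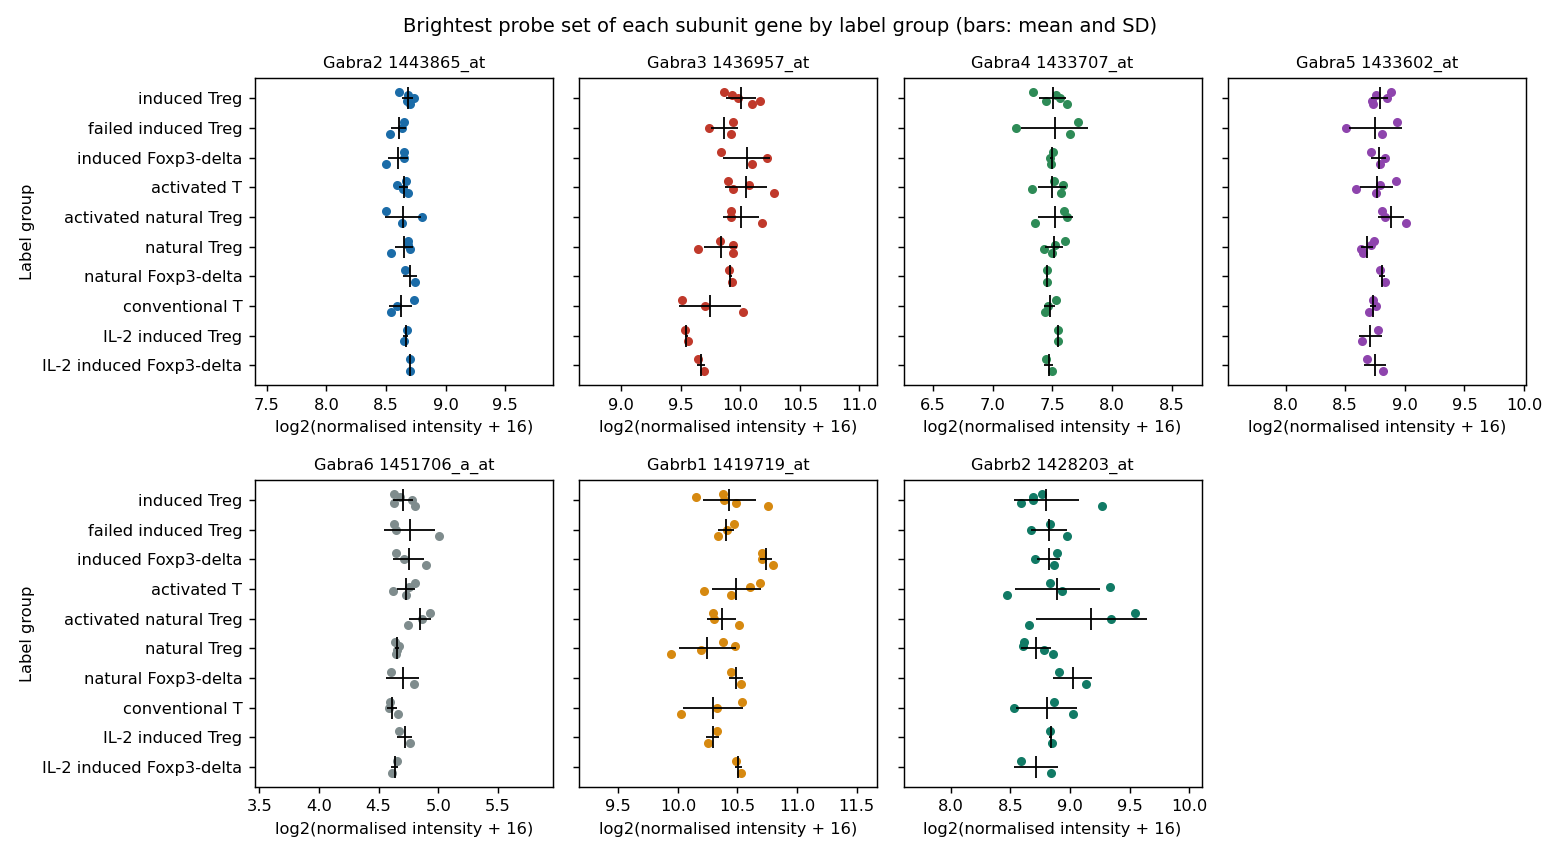
Level of each gene's brightest probe set (horizontal axes, log2 of normalised intensity plus 16, each spanning 2.5 log2 units) by label group (rows). Points are arrays, and black marks are the group mean and SD. Group means of Gabra2 and Gabra4 span 0.10 and 0.09, and those of Gabra3, Gabrb1 and Gabrb2 span 0.51, 0.49 and 0.47.

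With the label groups in order of their mean, neighbouring groups mostly lay within their spread, while the highest and the lowest group of each order lay further apart. Over the 7 brightest probe sets there were 63 pairs of neighbours, and in 2 of them the gap exceeded the larger of the groups' SDs. Between the ends of the order it did so in 7 of 7, as the ends are the most extreme of 10 means. One was Gabrb1, highest in arrays labelled induced Foxp3-delta at 10.74 ± 0.05 (SD, n = 3) and next in IL-2 induced Foxp3-delta at 10.51 ± 0.03 (n = 2). The other was Gabra3 at the low end of its order, with IL-2 induced Foxp3-delta at 9.67 ± 0.03 (n = 2) and IL-2 induced Treg at 9.55 ± 0.01 (n = 2). The highest Gabra3 group was induced Foxp3-delta at 10.05 ± 0.20 (n = 3), and the lowest Gabrb1 group was natural Treg at 10.25 ± 0.24 (n = 4). Group means ran from 8.60 to 8.70 for Gabra2, 7.46 to 7.55 for Gabra4, 8.69 to 8.88 for Gabra5, 4.61 to 4.85 for Gabra6 and 8.71 to 9.18 for Gabrb2. Gabrb2 was highest in arrays labelled activated natural Treg (9.18 ± 0.47, n = 3) and lowest in natural Treg (8.71 ± 0.13, n = 4), and those groups overlapped.

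None of the 21 subunit probe sets differed over the 10 label groups by limma's F test with Benjamini-Hochberg adjustment over 45037 probe sets, although 7.04% of all probe sets were called. Unadjusted p of the F test was under 0.05 for 3 of the 21. That count stands without the share of all probe sets under the same cut, and does not show whether the subunits differed from other genes. The smallest adjusted p-values were 0.0604 for Gabra3 1436957_at and 0.0643 for Gabrb2 1428205_x_at. In 12 pairwise comparisons the subunits gave 252 tests, of which 0 were called by limma and 17 (6.75%) had an unadjusted p under 0.05, against 10.9% of all probe sets (2.43% to 25.4% by comparison). For the 15 probe sets that passed the filter, the 95% interval lay within 1 on the log2 scale either way in 178 of 180 tests. For the 6 at or near the control level the added 16 shrinks differences strongly, and their intervals set no such limit. A p above the threshold does not show that levels were equal.

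The comparisons of uncultured cells ask what separates regulatory from conventional T cells and what the Foxp3 protein adds. For natural Treg against conventional T labels, 0 of 21 subunit probe sets were called by limma, where 0.00444% of all probe sets were. At an unadjusted p under 0.05 there were 0, against 2.43% of all. The largest difference was 0.34, for Gabrb2 1428205_x_at, and no subunit probe set had groups that did not overlap, against 6.15% of all. Between natural Foxp3-delta and conventional T (0.0577% called), 0 subunit probe sets were called by limma and 1 passed unadjusted (11.8% of all), and groups did not overlap in 4 of 21, against 33% of all. Between natural Treg and natural Foxp3-delta (0.0533% called), 0 were called by limma and 1 passed unadjusted (12.3% of all): Gabra2 1421738_at. Its log2 values were 8.67, 8.32, 9.03 and 8.97 on the natural Treg arrays and 8.09 and 8.28 on the natural Foxp3-delta arrays. The groups did not overlap, as in 6 of 21 subunit probe sets and 25.7% of all, and the difference was 0.57 (SE 0.20, limma adjusted p = 0.235). All natural Treg arrays are in array set 1 and the natural Foxp3-delta arrays in sets 2 and 3, and over all arrays of those sets this probe set averaged 8.72, 8.46 and 8.30. Gabra2 1443865_at averaged 8.65 and 8.70 in the same groups.

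The comparisons with stimulation ask what activation through CD3 and CD28 changed. Activated natural Treg also had TGF-beta, which activated T did not, so that its comparisons hold both changes. Between activated T and conventional T, 0 of 21 were called by limma where 2.88% of all were, and 1 passed unadjusted (18.7% of all), Gabra3 1436957_at with a difference of 0.30 (SE 0.11, limma adjusted p = 0.134) and overlapping groups. Groups did not overlap in 1 of 21, against 17.3% of all. Between activated natural Treg and natural Treg, 0 of 21 were called where 9.55% of all were, and 5 (4 higher, 1 lower) passed unadjusted where 25.4% of all did. Gabra5 read 8.81, 8.84 and 9.01 on the activated natural Treg arrays and 8.74, 8.71, 8.64 and 8.65 on the natural Treg arrays. Those groups did not overlap, as in 3 of 21 subunit probe sets and 23.6% of all, and the difference was 0.20 (SE 0.08, limma adjusted p = 0.13). Gabrb2 1428203_at differed by 0.47 (SE 0.18, limma adjusted p = 0.101), with 9.54, 9.34 and 8.65 against 8.61, 8.60, 8.78 and 8.86. The first 2 of these activated arrays were high and the third was not. Gabra6 1451706_a_at differed by 0.19 (limma adjusted p = 0.086) at intensities of 9.585 to 10.63 on the activated arrays, all at or near the control level. Between activated natural Treg and activated T (0.562% called), 0 were called by limma and 0 passed unadjusted (13.0% of all). Groups did not overlap in 0 of 21, against 7.35% of all. The interaction set activated minus uncultured in the natural Treg labels, with TGF-beta, against the same in the conventional T labels, without it. There limma called 0 of 21 (0.00222% of all), and 0 passed unadjusted (7.25% of all).

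The comparisons of induced cells ask what TGF-beta induction and the Foxp3 allele add. Between induced Treg and activated T, 0 of 21 were called by limma (0.0377% of all), with 0 unadjusted (9.93% of all). Groups did not overlap in 1 of 21, against 1.96% of all. Between induced Treg and failed induced Treg, 0 of 21 were called by limma (0% of all) and 1 passed unadjusted (4.73% of all), Gabra6 1417121_at at the control level. Groups did not overlap in 0 of 21, against 2.91% of all. Between induced Treg and induced Foxp3-delta, 0 of 21 were called by limma (0% of all) and 2 passed unadjusted (3.24% of all), and groups did not overlap in 0 of 21, against 2.4% of all. One of the 2 was Gabrb1 1419719_at, with log2 values of 10.38, 10.16, 10.38, 10.49 and 10.76 on the induced Treg arrays and 10.71, 10.71 and 10.80 on the induced Foxp3-delta arrays. Induced Treg replicate 5 overlapped the mutant arrays, and the difference was -0.30 (SE 0.12, limma adjusted p = 1). Within array set 3, with 2 arrays a group, it was -0.27, and within array set 2, with 1 a group, -0.04. The allele difference in natural against induced labels gave 0 of 21 calls in limma (0% of all), with 1 unadjusted (4.51% of all).

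The largest subunit differences of the 12 comparisons were those of 1 Gabrb2 probe set, lower in the IL-2 than in the induced labels. A Gabra3 probe set was lower there too. Neither passed the threshold. Gabrb2 1428205_x_at read deposited intensities of 98.95 and 142.4 on the IL-2 induced Treg arrays and 227.3, 279.5, 293.2, 378.3 and 219.5 on the induced Treg arrays. In log2 these were 6.91 and 7.35 against 7.84, 8.04, 8.11, 8.10 and 7.94. Both IL-2 arrays were below all 5 others, and the difference was -0.88 (SE 0.23, 95% interval -1.36 to -0.40, limma adjusted p = 0.0642). In this comparison 0 of 21 subunit probe sets were called and 2 passed unadjusted, where 1.02% of all were called and 13.2% passed unadjusted, and 2 of 21 had groups that did not overlap, against 20.8% of all. Within array set 1, with 2 arrays a group, the difference was -0.81. With each of the 31 arrays left out in turn the difference ran from -1.10 to -0.66 and limma's adjusted p from 0.039 to 0.618. It was highest without IL-2 induced Treg 1 and under the threshold without failed induced Treg 3 (0.039) or conventional T 2 (0.0401), arrays of neither group.

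Between the Foxp3-delta labels the same probe set read 7.18 and 7.15 on the IL-2 arrays and 8.21, 7.91 and 8.03 on the induced arrays. Again the groups did not overlap, as in 6 of 21 subunit probe sets and 33.8% of all, and the difference was -0.89 (SE 0.26, 95% interval -1.41 to -0.36, limma adjusted p = 0.128), with 0 of 21 called and 3 unadjusted where 0.204% of all were called and 12.6% passed unadjusted. The groups share no array set, and over all arrays of array sets 1, 2 and 3 this probe set averaged 7.57, 7.88 and 8.04. The suffix of this probe set marks probes that may also match other transcripts. The other bright Gabrb2 probe sets did not share the difference. 1428203_at, 1428204_at and 1429685_at differed by 0.04, 0.02 and 0.02 between IL-2 induced Treg and induced Treg, and by -0.11, 0.01 and 0.05 between the Foxp3-delta groups. Which of these readings follows Gabrb2 messenger RNA was not tested.

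**Figure D3:**
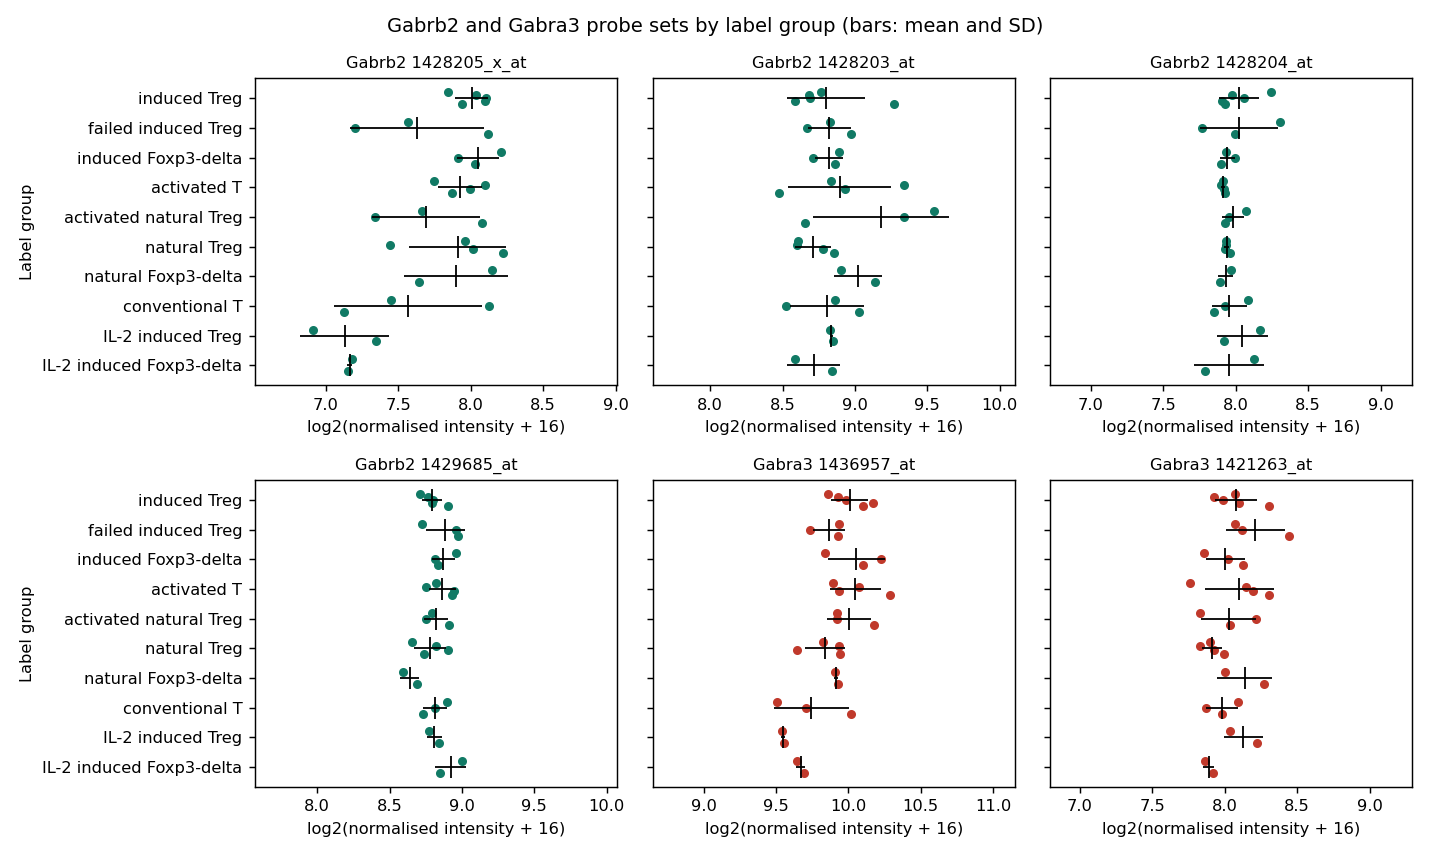
Bright Gabrb2 probe sets and both Gabra3 probe sets (panels) by label group (rows), on the log2 scale of normalised intensity plus 16. Points are arrays, and black marks are the group mean and SD. In Gabrb2 1428205_x_at the IL-2 groups lie at 7.13 and 7.17 against 8.01 and 8.05 for the induced groups, and the other 3 Gabrb2 panels show no such step.

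Gabra3 1436957_at read 611.2 and 636.0 on the IL-2 induced Treg arrays and 907.4, 1036, 1226, 1819 and 1185 on the induced Treg arrays. In log2 these were 9.54 and 9.56 against 9.86, 9.93, 9.98, 10.17 and 10.10, with no overlap. The difference was -0.46 (SE 0.12, 95% interval -0.71 to -0.21, limma adjusted p = 0.0642), and within array set 1 it was -0.35. With each array left out in turn the difference ran from -0.50 to -0.42 and limma's adjusted p from 0.0445 to 0.444. It was highest without IL-2 induced Treg 1 and under the threshold without conventional T 3 (0.0445) or induced Treg 1 (0.049979). Between the Foxp3-delta labels, which share no array set, the difference was -0.38 (SE 0.13, limma adjusted p = 0.21), with 9.65 and 9.69 against 9.84, 10.22 and 10.10. Over all arrays of array sets 1, 2 and 3 this probe set averaged 9.77, 10.04 and 10.00. The second Gabra3 probe set, 1421263_at, differed by 0.05 and -0.11. Gabra2 1421738_at was 0.51 higher (SE 0.21, limma adjusted p = 0.312) in IL-2 induced than in induced Foxp3-delta arrays. It averaged 8.72, 8.46 and 8.30 over all arrays of array sets 1, 2 and 3. Between the IL-2 groups, 0 of 21 were called by limma with 1 unadjusted (0% of all called, 2.84% unadjusted), and 10 of 21 had groups that did not overlap, against 34.8% of all probe sets with 2 arrays a group.

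**Figure D4:**
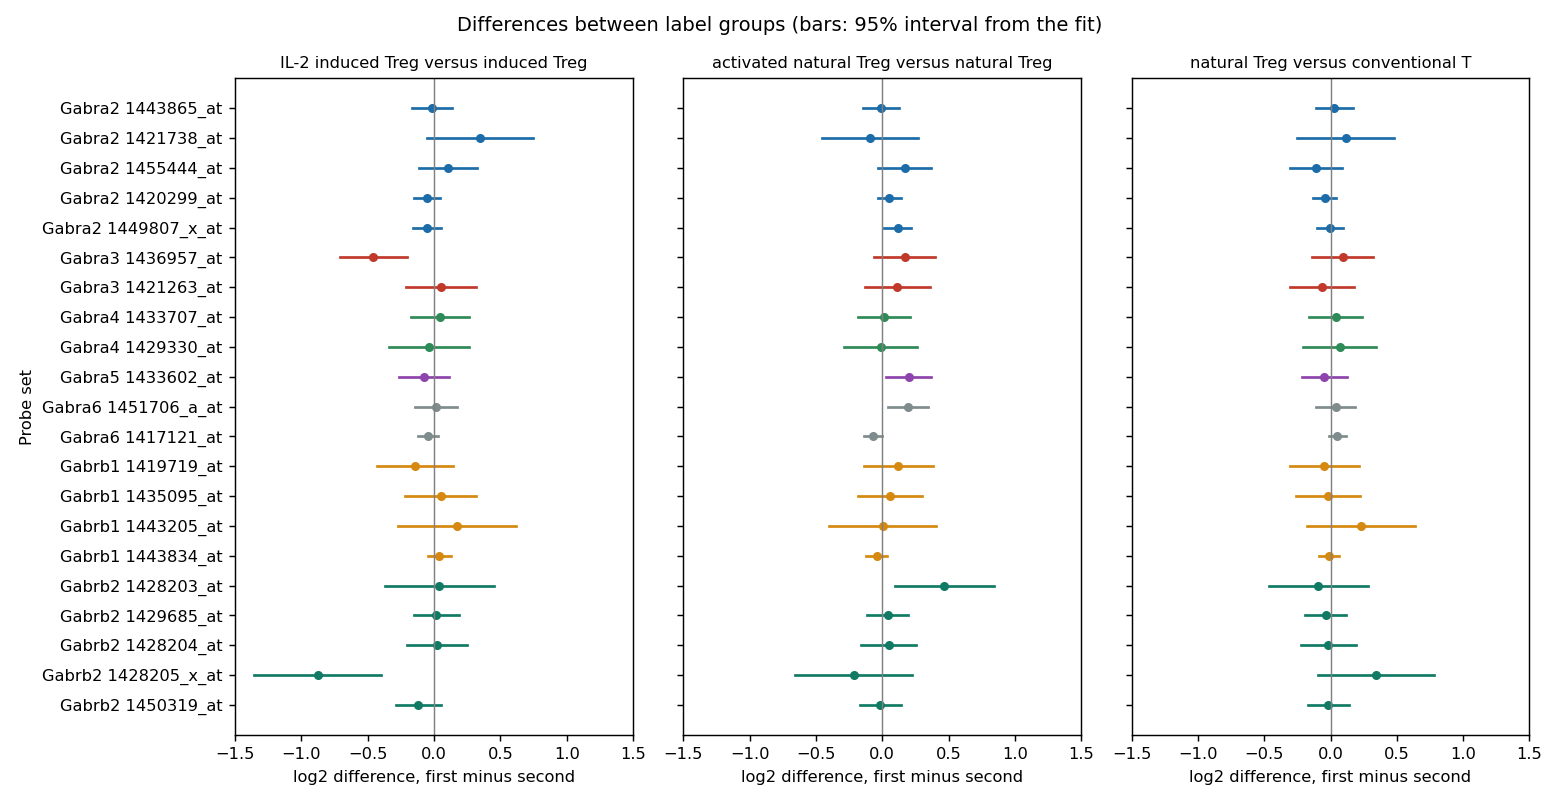
Difference in log2 level (horizontal axis, first group minus second) of each subunit probe set (rows) in 3 comparisons (panels). Points are the fitted differences and bars their 95% intervals. Gabrb2 1428205_x_at at -0.88 and Gabra3 1436957_at at -0.46 lie left of 0 in the IL-2 comparison, and every interval in the natural Treg against conventional T panel includes 0.

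Of the other receptor subunits, 8 were measured and 2 were above the control level on all arrays: Gabrg1 (mean intensity 230.9, percentile 76.1) and Gabrg3 (45.57, percentile 52.2), both gamma subunits. Gabrd, the delta subunit that often partners alpha-4 or alpha-6, averaged percentile 29.3. The subunits epsilon, pi, theta and both measured rho subunits averaged percentiles of 16.3 to 27.5. In contrast, all 20 measured genes for clustering and trafficking of the receptor were above the control level on every array, among them Gphn, for the scaffold gephyrin (percentile 89.9), and Nlgn2, an adhesion protein of inhibitory synapses (92.6). So were all 5 genes for GABA-B receptors and chloride handling, with Slc12a5, the chloride exporter of mature neurons, at percentile 98.8. Of 5 glycine receptor genes, 4 were above it, with Glra1 and Glrb, the subunits of the adult spinal receptor, at percentiles of 96.8 and 95.9. A last list held modulators of the receptor. Its 3 measured genes, Dbi, Tspo and Akr1c14, were above the control level on all arrays, at percentiles of 98.7, 66.8 and 30.8.

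Among the 41 measured genes of these lists, limma called 7 between activated natural Treg and natural Treg, where 9.55% of all probe sets were called. Gabarapl2 (0.48, adjusted p = 0.00544) and Gabarap (-0.45, adjusted p = 0.000497), related proteins of vesicle traffic and autophagy, rose and fell. Gabarap was higher, by 0.21, with arrays scaled to a common median instead. Clptm1 (0.52), which holds receptors back from the surface, Ubqln1 (0.20), which aids receptor stability, and Car7 (0.30), a neuronal carbonic anhydrase, rose by limma (adjusted p = 0.0217, 0.0197 and 0.0387). Clptm1 turned to -0.04 with the array set as a block, and Car7 to -0.31 in the values as deposited. Iqsec3, a gephyrin partner, and Gabrr2, a rho subunit near the control level, fell by 0.68 and 0.25 (limma adjusted p = 0.0225 and 0.0118). Between activated T and conventional T (2.88% called), Gabarapl2 rose by 0.41 and Gabarap fell by 0.38 (limma adjusted p = 0.0281 and 0.00493), and Gabarap was again higher, by 0.34, with median scaling. Between IL-2 induced Treg and induced Treg (1.02% called), Trak1, a motor adaptor, rose by 0.46 (limma adjusted p = 0.028), and the difference within array set 1 was 0.32. With the array set as a block none of these 10 calls held by limma's adjusted p. Gabarapl2 and Gabarap in activated natural Treg were then at 0.13 and -0.22, Iqsec3 at -0.20, and Ubqln1 at 0.21, as large as without the block. In the values as deposited 8 of the 10 did not hold, among them Gabarapl2 (limma adjusted p = 0.0657) and Gabarap (0.093) in activated natural Treg. With the mean of a gene's probe sets 5 did not: Clptm1 (0.14), Ubqln1 (0.06), Car7 (0.08), Trak1 (0.17) and Gabarapl2 in activated T (0.27). With each array left out in turn, both Gabarap calls and that of Gabarapl2 in activated natural Treg held. The call was lost for Gabrr2 without activated natural Treg 1 (-0.23), for Iqsec3 without activated natural Treg 2 (-0.39) or natural Treg 1, 2 or 3, and for Clptm1 without activated natural Treg 1 or 2 or natural Treg 2. It was lost for Ubqln1 without activated natural Treg 1 or natural Treg 1 or 4, and for Car7 without activated natural Treg 1 or 3 or any natural Treg array. For Gabarapl2 in activated T it was lost without activated T 2, 3 or 4 or any conventional T array, and for Trak1 without induced Treg 3, 4 or 5 or either IL-2 array.

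The genes whose levels followed each subunit most closely over the 31 arrays were ranked by Pearson's r among 11510 bright genes with a single symbol. The highest was 0.79 for Gabra3 with Mog, a myelin gene (Spearman's rho 0.78), followed by Rpl6 (0.79) and Smndc1 (0.78). Within array sets 1, 2 and 3 the Mog value was 0.63, 0.32 and 0.66, and that of Rpl6 0.80, -0.01 and 0.72. For Gabrb2 1428203_at the closest was Sncb, for beta-synuclein (0.75), and within array sets 1, 2 and 3 it was -0.15, 0.86 and 0.47. The closest genes were Mapk8 for Gabra2 (0.65), Shh for Gabra4 (0.63), Mrm2 for Gabra5 (0.67) and Tmem189 for Gabrb1 (0.68). Within array sets 1, 2 and 3 these were 0.44, 0.89 and 0.47 for Mapk8, 0.64, 0.75 and -0.21 for Shh, 0.62, 0.63 and 0.55 for Mrm2, and 0.36, 0.82 and 0.05 for Tmem189. The arrays fall in array sets of unknown origin, and the values are a description.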

How the data were processed

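Biotin-labelled total RNA was read on 31 single-channel Affymetrix arrays, per the labels. The deposited values are linear probe set intensities, and the summarisation, background correction, scaling and centring that the authors used are not given in the sources used here. Of 45101 probe sets, 64 controls were left out of the tests. The platform annotation gave 34945 probe sets 1 symbol, 932 several and 9160 none listed, and those with several were left unnamed. Arrays were quantile normalised and analysed as log2(intensity + 16) with limma 3.58.1 in R 4.3.3: 1 mean per label group over all 31 arrays, eBayes with a variance trend and no filter, so that every subunit probe set had a test. There were 12 contrasts and 2 interactions, adjusted by the Benjamini-Hochberg method over 45037 probe sets and called under 0.05. The script was tested on simulated data. A gene's brightest probe set stood for it in the lists. Every subunit probe set was accounted for. Called genes of the lists were named, up to 4 per direction and comparison, and the 3 genes most correlated with each bright subunit were ranked. The members, lists and array sets were chosen with earlier results of these data known. Alternatives were other normalisations and pseudocounts, a filter, no trend, other summaries of a gene's probe sets, array set or replicate number as a block, and each array left out. The number of arrays limits the precision.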

Additional observations from a re-analysis of the deposited data

Results flagged for a closer look

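Each of the 21 subunit probe sets was examined in the 3 label groups of 4 or 5 arrays, 63 groups in all. An array far from the rest, relative to their spread, was flagged in 3 of them. That is about the share of 1 in 20 that chance gives. For Gabra2 1443865_at, natural Treg replicate 4 was the lowest of its group at 8.54 in log2 (346 in intensity units, percentile 82.5), and the other 3 arrays lay between 8.68 and 8.70. For Gabrb2 1428203_at, induced Treg replicate 5 was the highest at 9.27 (615 units, percentile 88.6), and the other 4 lay between 8.59 and 8.77. That array is the only induced Treg array in array set 2, whose part in the value was not tested. For Gabrb2 1428204_at, natural Treg replicate 4 was the highest at 7.96, and the others were all at 7.93.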

How the results depend on the processing

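The count of 0 subunit probe sets called held under pseudocounts 1 and 64, without the variance trend, with 1 probe set per gene and with the mean of a gene's probe sets. In the values as deposited, 10 were called over the 10 label groups, 1 between activated T and conventional T, 10 between activated natural Treg and natural Treg (all lower) and 11 between induced Treg and activated T (all higher). The median of all probe sets then moved by -0.238, -0.332 and 0.319 in those comparisons. With arrays scaled to a common median the counts were 4 over the groups, 7 for activated T (all higher), 4 for activated natural Treg (all higher) and 2 for IL-2 induced Treg, with median shifts of 0.128, 0.12 and -0.072. The directions in the activation comparisons thus turn with the scaling. The counts in this section stand without the share of all probe sets called in the same setting. They therefore do not show whether the subunits differed from other genes. The 2 for IL-2 were Gabra3 1436957_at (-0.74) and Gabrb2 1428205_x_at (-0.93). With the filter on low values, 2 of 15 were called over the groups and 1, Gabrb2 1428205_x_at, for IL-2 induced Treg (adjusted p = 0.0498). With the array set as a block, 1 (Gabrb1 1443834_at, at the control level) was called over the groups. With each array left out in turn the counts ran from 0 to 1 over the groups, for activated natural Treg and for IL-2 induced Treg, and stayed at 0 elsewhere. The 1 over the groups came without failed induced Treg 3, induced Foxp3-delta 1, activated T 1, activated natural Treg 3, natural Treg 2, or conventional T 2 or 3. For activated natural Treg it came without failed induced Treg 3 or activated natural Treg 1 or 3, and for IL-2 induced Treg without induced Treg 1, failed induced Treg 3, or conventional T 2 or 3. Taking all probe sets of a gene in place of the brightest moved the mean percentile to 51.6 for Gabra2, 84.9 for Gabra3, 60.3 for Gabra4, 61.4 for Gabrb1 and 68.9 for Gabrb2.

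Of the calls in the other lists, Gabarap reversed with median scaling to 0.205 for activated natural Treg and 0.335 for activated T, Clptm1 to -0.035 with the array set as a block, and Car7 to -0.313 in the values as deposited. Of these 10 calls, 8 did not hold in the values as deposited, 5 with median scaling, 5 with the mean of a gene's probe sets and 10 with the array set as a block, whereas the pseudocounts, the variance trend and 1 probe set per gene changed none. When each array was left out, both calls of Gabarap and that of Gabarapl2 in activated natural Treg held, and the other 7 were lost without 1 to 6 of the arrays. The cause was not tested.

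Same-numbered samples were on average hardly more alike than others. The 114 same-numbered pairs had a mean correlation of deviations of 0.015 (-0.283 to 0.352), against -0.005 for other pairs. Of them, 10 were over 0.1, a count that stands without that of other pairs. A mean over all pairs cannot exclude pairing between particular groups. Induced and failed induced Treg came from the same cultures, and pairing between those groups alone was not tested. With the replicate number as a block, 0 subunit probe sets were called in every comparison, and Trak1 was 0.362 with adjusted p = 0.135.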
